A study of Homo sapiens with 10 samples.

Results

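The binding of MAML3 to chromatin in SK-N-SH cells was compared between cells given retinoic acid and cells given vehicle, using 4 peak lists from chromatin immunoprecipitation with sequencing (ChIP-seq). SK-N-SH is an established human neuroblastoma line. Peaks of the 4 MAML3 lists that overlapped by at least 1 bp were merged into 10251 sites, out of 10581 sites when the 4 RARα lists of the same study were merged in as well. A site was called gained when both retinoic acid (RA) lists held it and neither vehicle (UT) list did, and lost in the reverse case. There were 961 gained sites (9.37% of 10251) and 70 lost sites (0.683%), so 1031 sites in all. All cells were kept in charcoal-stripped serum for 24 hours before 1 µM retinoic acid or vehicle was added, and each treatment had 2 MAML3 lists and 2 RARα lists. No label ties a replicate to a culture of its own. In the names under which the MAML3 UT lists were deposited, library number and index agree and the lanes differ, so both may come from 1 library, although no label says so. An exact two-sided permutation test of 2 lists against 2 cannot go below p = 0.33, and the sites are therefore described by their values in each list, with no test.

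MAML3 is a member of the mastermind-like family, coactivators best known for joining the Notch intracellular domain and RBPJ on DNA and recruiting histone acetyltransferases. Retinoic acid acts through the retinoic acid receptors RARα, RARβ and RARγ, which pair with RXR on response elements made of directly repeated half-sites. Neuroblastoma cells are known to differentiate in retinoic acid, and genes for retinoid receptors and for the enzymes that clear retinoic acid are among the classical retinoid-responsive genes.

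One gained site lay at RARB, the gene of RARβ. This site (chr3:25469640-25470139, hg19) had a score of 155 in RA list 1 and 234 in RA list 2 and no peak in either UT list. The score is the value the authors deposited with each peak. Its scale is not stated, and it is used here to rank peaks within a list. All 4 RARα lists held a peak there, with scores of 590.2 and 207 in the UT lists and 457 and 493 in the RA lists. RARα was thus listed at this site under both treatments and MAML3 with retinoic acid alone. Within 200 kb of RARB there were 9 MAML3 sites, of which this was the only gained one, and UT list 2 held 3 MAML3 peaks in that window. From general knowledge of hg19, the RARβ2 start lies in this stretch, which could not be checked here against an annotation of that build. The RefSeq promoter table (GRCh38.p14, plus strand) gives 4 windows for RARB, of 250 bases before to 50 after a start. Of these, 1 holds the letters GTTCA repeated in direct orientation, written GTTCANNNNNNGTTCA. The last 100 bases before that start are shown because they carry the well-known retinoic acid response element of this gene, with the match in capitals.
RARB: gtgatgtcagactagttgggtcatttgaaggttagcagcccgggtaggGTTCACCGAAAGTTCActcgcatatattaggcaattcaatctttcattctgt
The match runs from base 52 to base 37 before the start. Searched on both strands, this motif was in 20 of 35116 promoter windows (0.0570%). Among the 45 windows of 22 retinoid genes it was in 2, of RARB and CYP26A1. The motif spells the spaced repeat of the well-known RARB element, so the match at RARB was fixed by the choice of motif. A match is a description of letters, and the table's build differs from that of the peaks.

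Of the 15 gained sites near retinoid genes, 9 were near the CYP26 genes or DHRS3, which encode enzymes that convert retinoids. CYP26B1, which oxidises retinoic acid, had 7 MAML3 sites within 200 kb, of which 4 were gained. They lie inside the neighbouring gene EXOC6B, a subunit of the exocyst. The strongest (chr2:72499032-72499681) scored 317 and 1578 in the RA lists, and RARα RA lists 1 and 2 held it at 666 and 232. A second (chr2:72431482-72432031) scored 279 and 675, with RARα at 913 and 652 in the RA lists. Neither RARα UT list had a peak at these sites. The other two CYP26B1 sites scored 165 and 399 (chr2:72434432-72434981) and 92.1 and 123 (chr2:72512782-72513181), and no RARα list held them. Further along EXOC6B, another gained site (chr2:72775132-72775731) scored 521 and 1355, with RARα at 936 and 365 in the RA lists alone.

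DHRS3, which reduces retinaldehyde to retinol, had 11 sites within 200 kb, of which 4 were gained, all inside the adjacent gene VPS13D, a lipid-transfer protein gene. The strongest (chr1:12493500-12494049) scored 415 and 937 in the RA lists. RARα had 93.8 there in UT list 1, no peak in UT list 2, and 984 and 771 in the RA lists. A second (chr1:12538200-12538749) scored 354 and 604, with RARα at 71.4 in UT list 1 and at 708 and 495 in the RA lists. At both sites UT list 2 was the only RARα list with no peak. The remaining pair scored 161 and 269 (chr1:12436350-12436899) and 103 and 281 (chr1:12514800-12515299), without RARα. CYP26A1 and CYP26C1, the neighbouring CYP26 genes, shared 1 gained site (chr10:94837680-94838091) with scores of 200.2 and 253, and RARα was there in the RA lists alone, at 176 and 125.

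Across the 27 listed retinoid genes, 19 had at least 1 MAML3 site within 200 kb and 9 had a gained one. These 9 were RARB, CYP26A1, CYP26B1, CYP26C1, DHRS3, CRABP2, ALDH1A2, NCOA2 and NCOA3. Of the 88 sites in these windows 15 were gained, or 17%, against 9.37% of all MAML3 sites. CRABP2, which carries retinoic acid inside the cell, had a gained site (chr1:156678150-156678599) at 97.8 and 221. ALDH1A2, which makes retinoic acid, had one (chr15:58027072-58027573) at 217 and 176. NCOA2 and NCOA3, coactivators of nuclear receptors, had 2 and 1, with scores between 74.6 and 232. Since the list was chosen with earlier results of these data known, its share is not independent evidence of a direction. Gene positions came from general knowledge of hg19, rounded to 0.1 Mb, so that "inside", "between" and "within 200 kb" are approximate and no exon, intron or promoter is named.

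**Figure D1:**
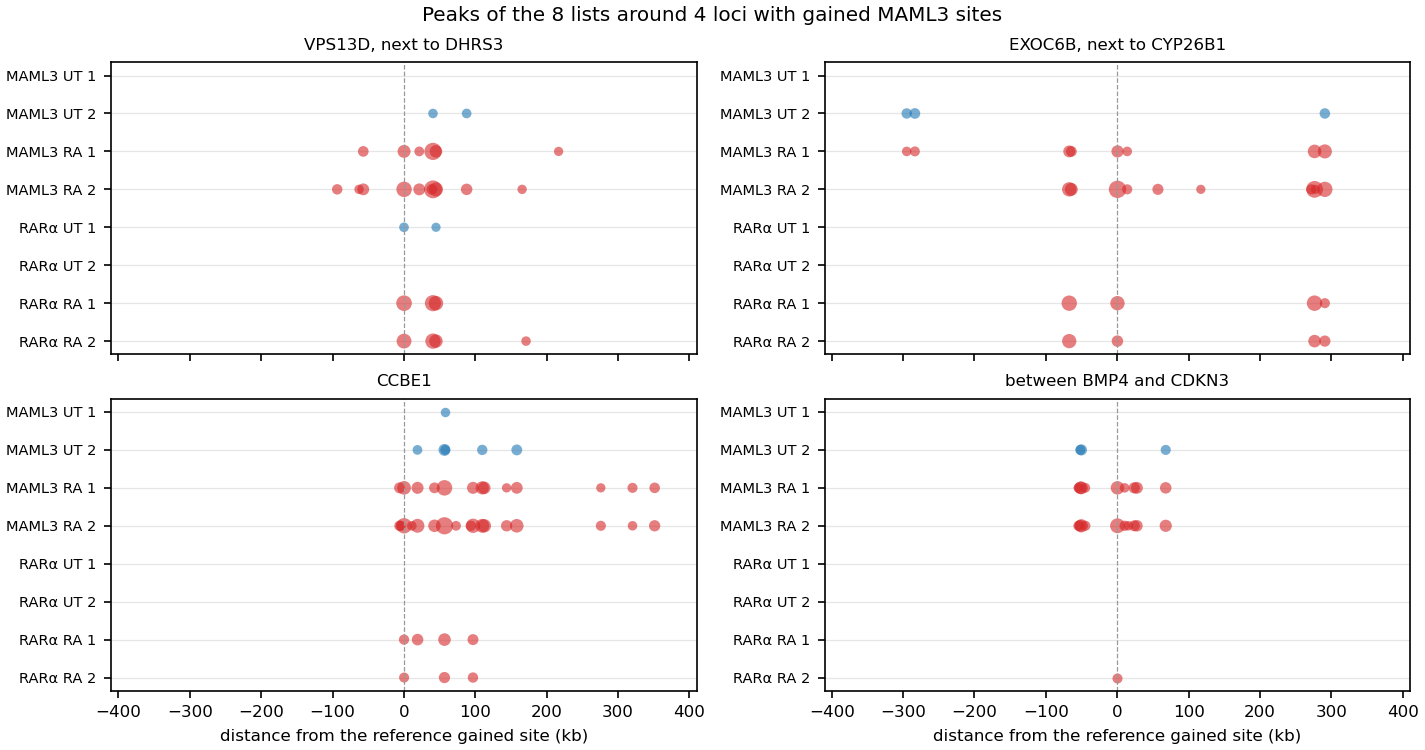
Peaks of the 8 lists within 400 kb of a gained site (dashed line, distance 0) at 4 loci. Each point is 1 peak at its distance in kb from the start of the reference site, with the point's area growing with the score; UT lists are blue and RA lists red. At VPS13D the MAML3 UT lists hold 0 and 2 peaks and the RA lists 6 and 10, and between BMP4 and CDKN3 they hold 0 and 3 against 9 and 10. The loci were chosen for their gained sites, which by definition have MAML3 peaks in both RA lists and in no UT list.

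Most gained sites stood alone, and the largest groups were at CCBE1 and between BMP4 and CDKN3. When gained sites no more than 100 kb apart were grouped, 719 stood alone, 78 groups had 2, 18 had 3, 5 had 4 and 2 had 6. A gained site has by definition a peak in both RA lists and none in either UT list. The MAML3 peak counts given for these groups therefore partly restate how the groups were found. CCBE1 encodes a secreted protein needed for lymphatic vessel growth. In its group (chr18:57120673-57271122) 6 of 14 sites were gained and 1 was lost, and the lists held 1 and 4 peaks with vehicle and 9 and 13 with retinoic acid. RARα had 4 and 3 peaks there in the RA lists and none in the UT lists. BMP4 is a secreted growth factor and CDKN3 a phosphatase of cyclin-dependent kinases. In the group between them (chr14:54687984-54770533) 6 of 9 sites were gained, and the lists held 0 and 2 peaks with vehicle against 8 and 9 with retinoic acid. A single RARα peak, in RA list 2, fell in this group. The CCBE1 and BMP4 groups thus had the same number of gained sites but differed in RARα peaks.

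Groups of 4 gained sites lay in VPS13D and EXOC6B, described above, in SMG6, in NBEA around MAB21L1, and between SOX4 and PRL. SMG6, an endonuclease of nonsense-mediated decay, had 0 and 1 MAML3 peaks with vehicle and 6 and 6 with retinoic acid in its group (chr17:1979719-2083368), and all 4 RARα lists had peaks there. The NBEA group (chr13:36039401-36102750) surrounds MAB21L1, a gene of eye and neural development, and had 0 and 2 against 5 and 7 peaks with no RARα peak. The stretch beyond SOX4, a transcription factor of neural progenitors (chr6:21741056-21851305), had 0 and 0 against 4 and 5, with 1 RARα peak in RA list 1.

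By chromosome, the gained share ran from 5.60% of sites on chromosome 17 to 13.4% on chromosome 18, apart from chromosome Y, where none of 6 sites was gained. Chromosome 2 held the most gained sites, 121 of its 962.

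Among the 20 gained sites ranked highest by score, the first was in DLG2, a scaffold protein of the synapse (chr11:83574363-83574662), with 3100 in both RA lists. This value was shared by 14 and 8 peaks of these lists, with 1 and 0 peaks above it, so it looks like a ceiling of the score and does not order those peaks. No RARα list had a peak there. Next came a site between SLC10A2 and DAOA (chr13:104659098-104659650) at 915 and 2777, with RARα at 269.6 and 325 in the RA lists alone. A site between DKK2, a secreted Wnt modulator, and PAPSS1 (chr4:108373812-108374399) scored 918 and 1312. MSI2, an RNA-binding protein of progenitor cells, held one (chr17:55700301-55700718) at 1107 and 904. These 4 had scores far above the median of gained sites, which was 121 in RA list 1 and 113 in RA list 2.

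Further down the ranking, a site in LRBA by MAB21L2 (chr4:151490562-151491149) scored 704 and 747, and one in PRKCH, a protein kinase C gene (chr14:61943406-61943933), 695 and 627. A site in CCBE1 (chr18:57126973-57127572) scored 539 and 924. Others of the 20 lay in GMDS, PSMD1, VPS13B and PEX7 and between MPPED2 and DCDC1, BMP4 and CDKN3, MAGEB2 and MAGEB3, NBEA and DCLK1, and ZNF536 and TSHZ3. Of the 20, 12 were placed in a gene and 8 between genes. Both RARα RA lists held 12 of them and RARα UT lists 1 and 2 held 4 and 0.

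**Figure D2:**
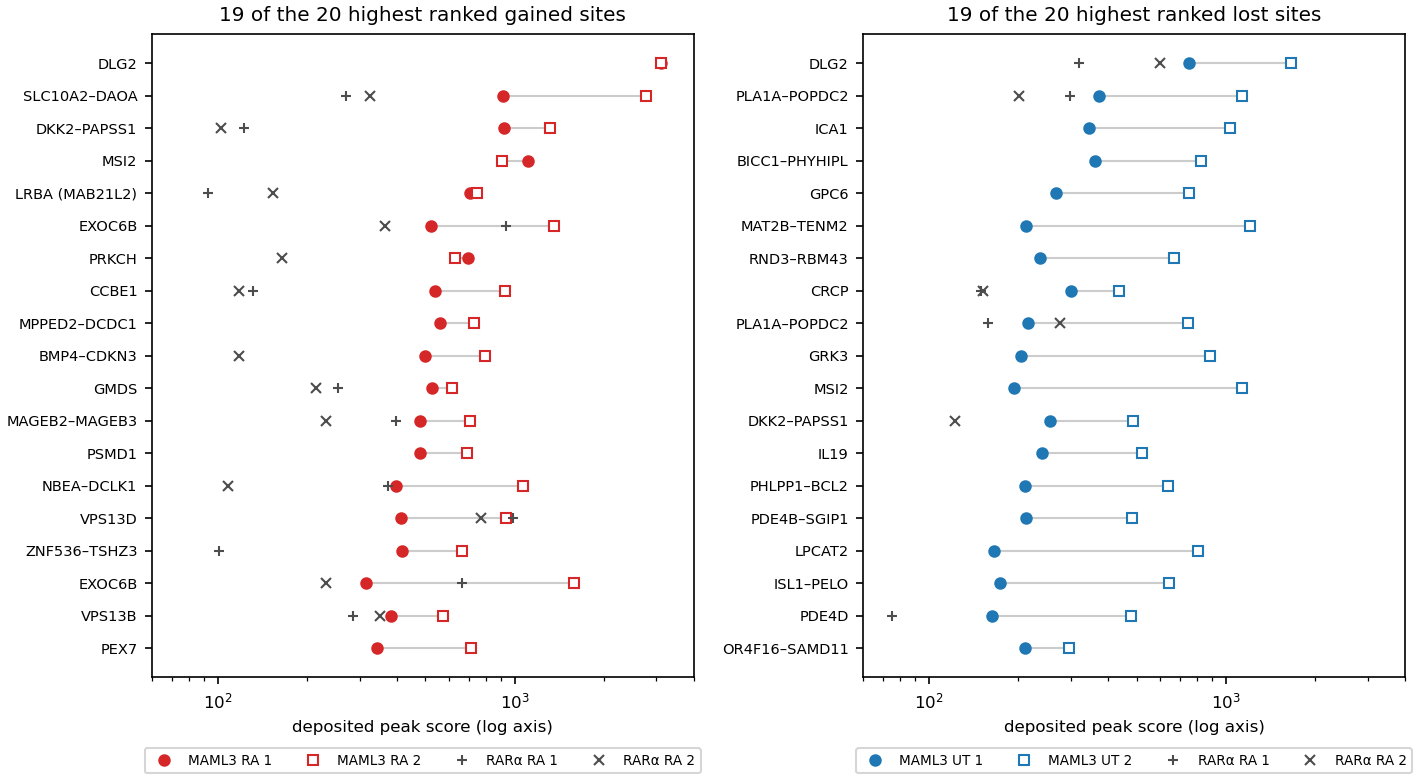
Scores of 19 of the 20 highest ranked gained sites (left, red) and 19 of the 20 lost sites (right, blue), 1 row per site, on a log axis. Circles and squares are the 2 MAML3 lists that hold the site and grey marks are RARα RA lists, drawn only where a peak exists; 11 gained and 4 lost sites drawn carry both grey marks.

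The median score percentile of gained sites within their lists was 36.2, against 38.1 for all 10251 sites and 74.4 for sites in all 4 lists. These sets are unlike, because all sites include those held by a single list and percentiles from the UT lists. Of the 961 sites, 171 (17.8%) scored under 100 in both RA lists and 34 (3.54%) over 300 in both, on a scale whose lowest value was about 70 in each list. Gained sites had a median width of 404 bp and lost sites of 323.5 bp, against 519 bp for the 1724 sites in all 4 lists. Of the 70 lost sites, 13 (18.6%) scored under 100 in both UT lists and 4 (5.71%) over 300.

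The lists differed in length, with 6759 peaks in UT list 2, 7532 and 6230 in the RA lists and fewest in UT list 1, and the gained and lost calls depended on it. Both RA lists shared 4947 sites, of which 961 (19.4%) were in neither UT list, 2242 (45.3%) in UT list 2 alone of the UT lists and 20 (0.404%) in UT list 1 alone. Both UT lists shared 1946 sites, of which 70 (3.60%) were in neither RA list. Leaving out the short UT list 1 gave 981 gained and 1370 lost sites. A lost site then needed only UT list 2, while a gained site still needed both RA lists. With all lists in use, 1300 sites were in UT list 2 alone, so the larger number of lost sites follows from the rule. The same holds in reverse for each list left out below. Leaving out UT list 2 gave 3201 gained and 139 lost sites. Without RA list 1 there were 1851 gained and 176 lost sites, and without RA list 2 there were 2529 and 117.

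With each list cut to the length of UT list 1 by keeping its highest scores, 3619 sites remained, of which 289 (7.99%) were gained and 173 (4.78%) lost. Of the 289, only 71 were gained in the full lists too, and the other 218 (75.4%) had a lower placed peak in the full UT list 2, at a median rank of 3379 of 6759. Of the 173 lost sites 28 were lost in the full lists too, and 140 were held by the full RA list 1 and 126 by the full RA list 2. A site gained or lost in the full lists stays so at equal length whenever the cut keeps its peaks. Staying therefore depends on score rank and is no separate check of the call. The 20 highest ranked sites of each direction, picked by score, were all among the 71 or the 28. The RARB site was not, its peak being 3462nd in RA list 1 and 1747th in RA list 2, and of the 15 retinoid sites 4 were.

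Lost sites lay nearer to a MAML3 peak of the other treatment than gained sites did. For 31 of the 70 (44.3%) a MAML3 RA peak stood within 1 kb, for 43 (61.4%) within 10 kb and for 61 (87.1%) within 100 kb, at a median of 2.54 kb, and 27 had none within 10 kb. Gained sites had a MAML3 UT peak within these distances in 25 (2.60%), 187 (19.5%) and 558 (58.1%) of 961, at a median of 70.1 kb. The UT and RA lists hold different numbers of peaks, which moves with these distances, and the part of that in the difference was not tested. Of the 31 neighbours, 28 were in both RA lists, 18 belonged to sites found in all 4 lists and 2 were gained sites. Of the 28 sites lost in both full and equal-length lists, 23 had an RA peak within 1 kb and all 28 within 10 kb.

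**Figure D3:**
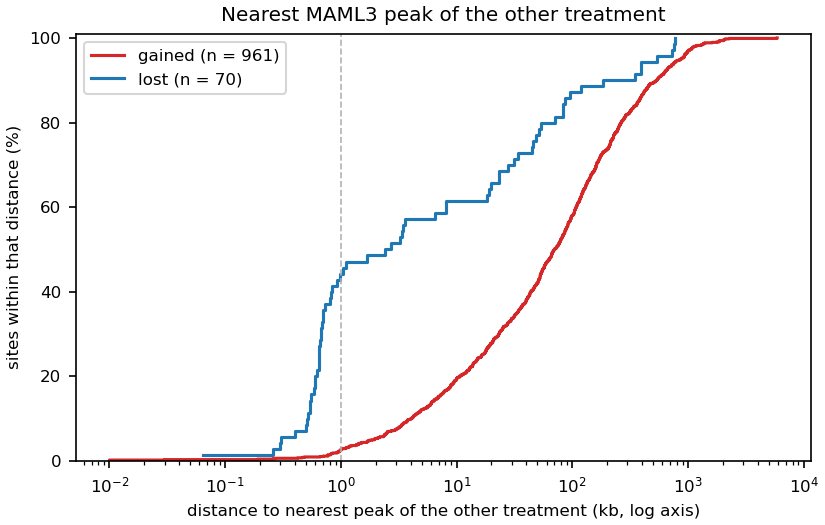
Cumulative share of gained (red, n = 961) and lost (blue, n = 70) sites, in percent, by the distance in kb (log axis, values under 0.01 kb drawn at 0.01) to the nearest MAML3 peak of the other treatment. At 1 kb (dashed line) the curves stand at 2.60% and 44.3%.

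At DLG2 and MSI2 the gained and the lost sites were neighbours. In DLG2 the lost site (chr11:83575482-83576156) scored 749 and 1650 in the UT lists, and lay 819 bp from the gained site with 3100 in both RA lists. All 4 RARα lists held the lost position, at 288, 94.9, 321 and 601, and none the gained one. In MSI2 the lost site (chr17:55700978-55701314) scored 194 and 1128 and lay 259 bp from the gained site. These were the only 2 of the 70 lost sites with a gained site within 1 kb, and 11 had one within 100 kb. Whether such pairs are separate binding events or 1 region whose peak was drawn elsewhere was not tested.

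The other highly ranked lost sites had no gained site within 1 kb, although most had an RA peak within that distance. Between PLA1A, a phospholipase, and POPDC2 there were 2 (chr3:119357686-119358106 and chr3:119358736-119359206), at 372 and 1132 and at 215 and 747 in the UT lists. RARα was at both in UT list 1 and both RA lists. ICA1 held a lost site (chr7:8269600-8269999) at 345 and 1034, with an RA peak 649 bp away. GPC6, a cell-surface glypican, held one (chr13:94709963-94710366) at 267 and 751, with an RA peak 662 bp away. GRK3, a receptor kinase (chr22:26093775-26094124), scored 203 and 883, and CRCP (chr7:65590797-65591199) 299.7 and 437. Others of the 20 lay in IL19, LPCAT2 and PDE4D, and between BICC1 and PHYHIPL, MAT2B and TENM2, RND3 and RBM43, DKK2 and PAPSS1, PHLPP1 and BCL2, PDE4B and SGIP1, ISL1 and PELO, and OR4F16 and SAMD11. Of the 20, 17 had an RA peak within 1 kb. When peaks up to 1 kb apart were merged, 2 sites stayed lost in both the full and the equal-length lists. One lay in PDE4D, a cyclic AMP phosphodiesterase (chr5:58781550-58781949), at 162 and 477, and the other at chr6:155770579-155770928, at 111.5 and 327.

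RARα peaks were listed at a larger share of the highly ranked gained sites than of the gained sites as a whole. RARα UT lists 1 and 2 held 38 (3.95%) and 5 (0.520%) of the 961 gained sites, and RARα RA lists 1 and 2 held 73 (7.60%) and 81 (8.43%). The same 4 lists held 11.3%, 1.85%, 8.70% and 8.88% of all MAML3 sites and 43.3%, 6.61%, 29.7% and 31.4% of the 1724 sites in all 4 MAML3 lists. At the 71 gained sites that held at equal length the shares were 21.1%, 2.82%, 43.7% and 45.1%, and both RARα RA lists held 33.8% of the 71. UT list 1 is the longest RARα list, with 1321 peaks against 251, 1103 and 1064, yet it held fewer gained sites than either RA list. At sites in all 4 MAML3 lists the order was the opposite, with UT list 1 the highest. The 70 lost sites were held by 10, 2, 8 and 7 (14.3%, 2.86%, 11.4% and 10.0%), with no such separation between treatments. High scores in MAML3 moved with the RARα shares, and the part of rank in them was not tested.

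**Figure D4:**
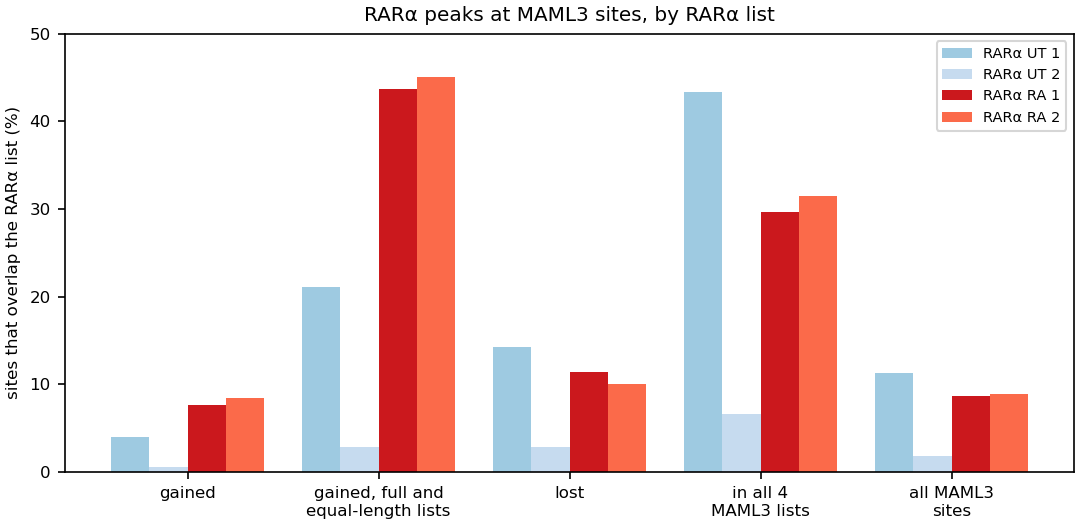
Percent of MAML3 sites that overlap a peak of each RARα list, for 5 classes of sites. Bars are single lists (blue UT, red RA) and start at 0, with no error bar because each is 1 list; at the gained classes both RA bars exceed the UT bars, and at sites in all 4 lists UT list 1 is the highest with 43.3%.

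Receptors for neurotrophins and for GDNF-family ligands had the other high gained share among the lists. Of 64 sites in their windows 11 were gained (17.2%) and 1, at NTRK3 (chr15:88889193-88889392), was lost. GFRA1, the GDNF co-receptor, had 4 gained of 9 sites, with RA scores between 95.4 and 199. RET, the signalling receptor for that family, had 2 gained of 9 (chr10:43552842-43553279 and chr10:43555780-43556229), at 93.4 and 119 and at 102 and 198. NTRK2, the BDNF receptor, had 2 gained, at 124 and 151 and at 96.6 and 95.6. All 11 scored low, and none of them was gained in the lists of equal length.

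Axon guidance genes had 17 gained of 162 sites (10.5%), close to the share of all sites. ROBO1 and ROBO2, receptors of Slit ligands, had 3 gained of 5 and 3 gained of 7 sites, with RA scores between 77.0 and 234. SLIT2, a ligand (chr4:20464062-20464549), had one at 529 and 223, and PLXNA4, a semaphorin co-receptor (chr7:132277201-132277945), one at 271 and 306. Both scored high enough to be kept by the cut to equal length. The regulators of the adrenergic state of neuroblastoma had 10 of 143 (6.99%), among them PHOX2A, GATA3, TBX2, KLF7, EYA1 and ZNF536. Regulators of the mesenchymal state had 4 of 37 (10.8%).

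Genes of the Notch pathway, in which MAML3 is known, and the targets of that pathway were listed separately. Notch pathway and mastermind genes had 1 of 26 (3.85%), at NOTCH2 (chr1:120412600-120413049), with 258 and 329 in the RA lists. Notch target genes had 3 of 25 (12%), at HEY1, HEY2 and MYC, with scores between 74.2 and 136, and 1 lost in the window of HES4 (chr1:851950-852295), at 209.6 and 296. HOX clusters had 0 gained of 4 sites, TALE homeobox genes 1 of 22, genes of IGF signalling 1 of 31, catecholamine and nicotinic transmission 1 of 35, with 1 lost in the window of the noradrenaline transporter SLC6A2 (chr16:55595355-55595730), cell cycle genes 1 of 22, teneurins 3 of 40 and nuclear factor I genes 2 of 30. The lost sites in the windows of HES4 and SLC6A2 are those placed above between OR4F16 and SAMD11 and in LPCAT2. RA peaks of sites found in all 4 lists stood 504 and 931 bp from them. Together 67 of 693 sites in the windows of listed genes were gained (9.67%), close to the 9.37% of all sites.

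Sites that both treatments shared were also compared by rank. Among 1087 sites in all 4 lists of equal length, each list was ranked from 1, the highest score. At 262 sites (24.1%) both RA ranks were above both UT ranks, at 289 (26.6%) below, and at 536 they overlapped. Within a fixed set of sites, a rise in rank at some must be met by a fall at others. How often 2 lists would separate from 2 without any effect of treatment was not tested. Across these sites the Spearman correlation of ranks was 0.81 between the RA lists and 0.73 between the UT lists, and 0.55 to 0.73 between treatments. The highest of these, between UT list 2 and RA list 1, nearly equalled that between the UT lists, so the treatments did not separate at every pair. The sites named next are among the 12 in each direction with the widest gap between the ranks of the treatments.

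The largest upward shift was in SGIP1, an endocytic adaptor gene (chr1:67082950-67083549). It scored 126 and 304 with vehicle, at ranks 842 and 1019, and 1624 and 1467 with retinoic acid, at ranks 99 and 70. A site between BMS1 and RET (chr10:43476880-43477429) scored 83.4 and 329 with vehicle and 838 and 974 with retinoic acid, from ranks 1019 and 981 to 319 and 170. RARα was there in UT list 1 at 146 and in the RA lists at 462 and 271. The G protein α subunit genes GNA14 (chr9:80161951-80162550) and GNAQ (chr9:80365101-80365559), which neighbour each other, held one each, with UT scores from 75.7 to 473 and RA scores from 871 to 1182. Others lay in OSBPL10, CCDC102B and PPP3CA and between NAALADL2 and TBL1XR1, MTX2 and HNRNPA3, PRICKLE1 and ADAMTS20, and ASAP1 and ADCY8. The site by RET that rose in rank was higher in score than the gained ones near it.

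In the other direction the largest shift was between HAND2, an adrenergic regulator of neuroblastoma, and FBXO8 (chr4:175065150-175065676). It scored 313 and 683 with vehicle and 266 and 207 with retinoic acid, from ranks 335 and 469 to 1055 and 1056. A site between IGFBP3 and TNS3 (chr7:46940297-46940799) went from ranks 500 and 485 to 991 and 1055. Its scores were 226 and 668 with vehicle and 311 and 207 with retinoic acid. A site in the potassium channel gene KCNMA1 (chr10:78731272-78731791) went from ranks 290 and 393 to 860 and 1084. It scored 347 and 772 with vehicle and 389 and 193 with retinoic acid. At the IGFBP3 and KCNMA1 sites the score in RA list 1 was thus above that in UT list 1, although the rank was lower. Others lay in ZNF804A, PKHD1, CDKAL1 and TRABD2B and between LMO7 and KCTD12, ITGB8 and ABCB5, MTPN and CHRM2, and KIRREL3 and ETS1. Both RARα RA lists held 8 of the 12 sites that went up and 0 of the 12 that went down, whereas RARα UT list 1 held 8 and 6. Over all sites that shifted the difference was smaller, with RARα RA lists 1 and 2 at 46.6% and 53.8% of the 262 and 36.7% and 42.9% of the 289, and RARα UT list 1 at 58.0% and 58.5%. Of the 536 sites whose ranks overlapped, RARα RA lists 1 and 2 held 37.1% and 39.2% and RARα UT list 1 held 51.7%. The sites that went down as a whole thus did not fall clearly below the unshifted sites in RARα peaks.

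**Figure D5:**
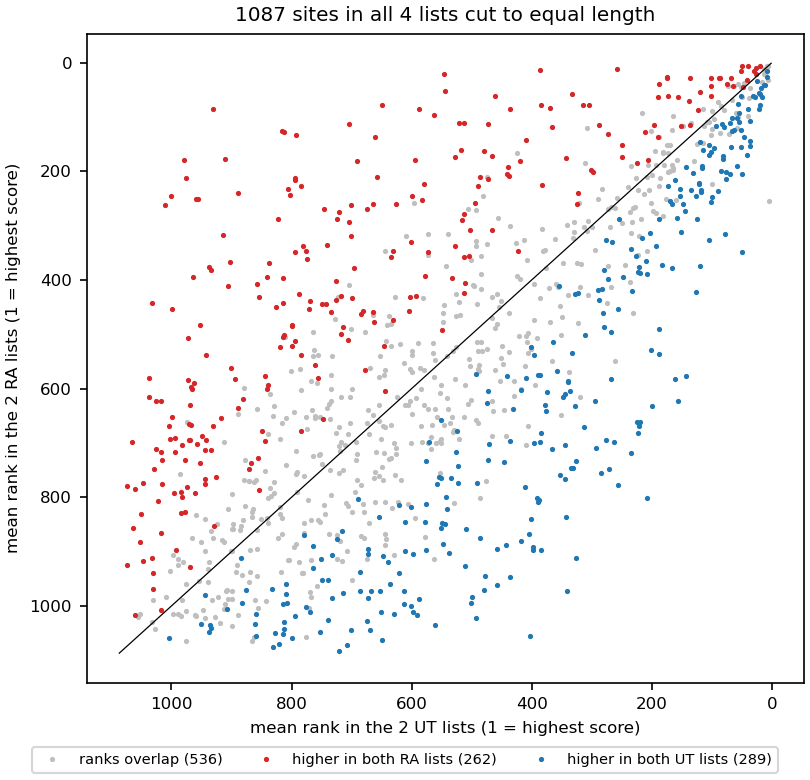
Mean rank in the RA lists against mean rank in the UT lists for the 1087 sites in all 4 lists cut to equal length, rank 1 at the top and right, with the line of equal rank. Red points (262) have both RA ranks above both UT ranks, blue points (289) the reverse, and grey points (536) overlap.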

How the data were processed

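The authors deposited 1 peak list per ChIP sample, with chromosome, start, end, a name and a score (the 5th column), and no header; the sources used here give neither the score's scale nor the read depth. Per the labels' protocols, libraries were amplified by PCR and sequenced on a Genome Analyzer. BWA 0.5.9, MACS, bedtools and hg19 are named in the submitters' processing notes, without roles. The input samples are not used here. Starts were raised by 1. Peaks of the MAML3 lists were merged by single linkage (overlap of 1 bp), a site's score in a list being its highest, with Python 3.11.15, pandas 2.3.3, numpy 2.4.6 and scipy 1.17.1; the merging and classes were tested on simulated lists. The 20 sites per class that the text draws on have the highest mean score percentile in their lists; some of these and other sites are not reported here by name. The members and the gene lists were chosen with earlier results of these data known. The rank comparison with its 12 sites per direction, the 100 kb groups, the 200 kb windows and the 4 loci drawn were chosen after the data were seen. No genome or annotation of hg19 was used, so no site sequence, distance to a gene or count of genes by nearest site is given. Places of 225 listed genes and clusters and of 81 sites came from general knowledge of hg19. In the RefSeq table (GRCh38.p14), used for names and order (its positions were looked at beside the remembered ones, and none was changed for it), 221 of 221 placed symbols were on the same chromosome, 1270 of 1270 pairs were in the same order, and 33 of 35 flanking pairs had no coding gene between them (not ZBTB18 and ADSS2, or SOX4 and PRL).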

Additional observations from a re-analysis of the deposited data

How the results depend on the processing

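The 961 gained and 70 lost sites became 502 and 37 with the 50% highest scores of each list, 289 and 173 with lists of equal length, and ranged from 981 to 3201 and from 117 to 1370 with 1 MAML3 list left out. Merging peaks up to 1 kb apart left 39 lost sites, and leaving out those with a peak of the other treatment within 1 kb or 10 kb left 39 and 27. At equal length the 289 gained and 173 lost sites ranged from 343 to 608 and from 260 to 624 with 1 list left out, and lists of 1000 peaks gave 132 and 108. The 262 sites higher and 289 lower in rank ranged from 404 to 445 and from 455 to 548, and lists of 1000 peaks gave 108 and 134. With fewer lists a call needs fewer lists to agree, which by construction raises these counts. An overlap of 50% of the shorter peak gave 941, 68, 287, 170, 262 and 289, in that order. For the share gained by gene list, 85 of 144 values under other settings lay inside the 95% Wilson interval of the value given, and the retinoid share ran from 16.7% to 44.9%. The 44.9% came without UT list 2, where 3201 sites were gained and the share rose in every gene list. Axon guidance genes then had 38.2% and cell cycle genes 47.4%, so the 44.9% cannot be read against the 9.37% of all sites in the main setting. The alternatives with 1000 peaks and with nearby peaks left out, and all those for the equal-length and rank counts, were chosen after seeing the data. Alternatives for counts of genes with a gained or lost site were not run. No paired analysis was possible because the results come from presence in lists and no test was fitted. Unknown depth limits every absence: a site missing from a list was not listed at that list's score minimum, and need not be unbound.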
